A study of Homo sapiens with 16 samples.

Results

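IRF1, STAT2, GBP1, GBP2, IFIT1, IFIT3, ISG15, MX1 and IFI6 are interferon-inducible genes, and their RNA was followed in human kidney organoids by day of culture and after tumor necrosis factor alpha (TNFα). They were taken as a named list of 9 genes among the 42364 gene identifiers of the study, and each of the 9 was present in all 3 bulk tables and in both single-cell matrices. The question asked of them was whether TNFα alone, with no interferon added, went together with higher levels. Interferon protein made by the cells was not measured here. All groups were kidney organoids grown from the human embryonic stem cell line UM77-2, which is 1 cell line, and none carried an engineered allele. Isolated organoid spheroids were sampled on days 21, 25 and 29 of culture, with 1 library a day in set 1 and 2 libraries a day in set 2. In the TNFα table, spheroids collected on day 25 had received 5 ng/ml TNFα or its vehicle (vehicle control, VC) for 24 h or 48 h, with 1 library for each of the 4 conditions. The labels of these libraries word the treatment day in a way that is not self-consistent. Day and duration here therefore follow the study's methods and the sample titles. The single-cell libraries, 1 of VC and 1 of TNFα, came from day 24 cultures after 24 h, collected as whole wells and so including cells outside the spheroids. No label gives the cultures that the paired set 2 libraries came from, so p-values there measure the spread between libraries, which may be technical.

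As background, type I interferons (the IFNA genes, IFNB1 and others) bind a receptor made of IFNAR1 and IFNAR2. The kinases JAK1 and TYK2 on this receptor phosphorylate STAT2, which acts in a complex with IRF9 that binds interferon-stimulated response elements (ISRE) near genes such as IFIT1, IFIT3, ISG15, MX1 and IFI6. Type II interferon (IFNG) acts through IFNGR1, IFNGR2, JAK1 and JAK2 and leads to binding at gamma-activated sites (GAS) near genes such as IRF1 and the guanylate-binding proteins. TNFα signals mainly through NF-κB, which binds κB sites, and IRF1 is known to carry both a GAS and a κB site. These genes are known in kidney from inflammation and viral defence.

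The members differ in these promoter letters, which is why a set of 4 is shown here. The promoters are those of RefSeq on GRCh38.p14, 250 bases before each start, searched on both strands for the ISRE core TTTCNNTTTC, for the GAS letters TTCNNNGAA and for the κB consensus. Among 35116 promoters of that length, 3.02% held the ISRE core, 6.57% the GAS letters and 9.96% a κB match. The stretches below run 5′ to 3′ on the gene's own strand, with the matches in capitals, and the ISG15 matches lie on the opposite strand and overlap. IRF1 (chr5:132490804-132490933, minus strand) holds 1 GAS match and then 1 κB match, GBP1 (chr1:89065316-89065368, minus strand) 1 ISRE core, IFIT1 (chr10:89392463-89392539, plus strand) 2 ISRE cores, and ISG15 (chr1:1013337-1013409, plus strand) 2 ISRE cores.
IRF1: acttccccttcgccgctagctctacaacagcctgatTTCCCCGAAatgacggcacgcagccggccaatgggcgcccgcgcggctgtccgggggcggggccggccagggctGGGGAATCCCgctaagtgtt
GBP1: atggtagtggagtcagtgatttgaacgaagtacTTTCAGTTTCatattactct
IFIT1: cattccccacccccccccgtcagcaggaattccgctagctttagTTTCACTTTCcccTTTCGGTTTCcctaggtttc
ISG15: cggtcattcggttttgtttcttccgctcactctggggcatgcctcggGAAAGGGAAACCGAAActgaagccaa

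IFI6 held 3 ISRE cores, each of the 2 IFIT3 promoters held 2, and among the 3 MX1 promoters 1 held an ISRE core, a GAS match and a κB match, another held a κB match and the third held none. The STAT2 promoter held none of these letters in the window. No promoter of GBP2 was searched here. A match is a description of letters and does not show binding. In GENCODE 44 on GRCh38, the genes lie on chromosome 5 (IRF1, ENSG00000125347, 132440440 to 132508719), chromosome 12 (STAT2, ENSG00000170581, 56341597 to 56360203), chromosome 21 (MX1, ENSG00000157601, 41420020 to 41470071), chromosome 10 (IFIT3, ENSG00000119917, 89327307 to 89377473, and IFIT1, ENSG00000185745, 89392546 to 89406487) and chromosome 1 (ISG15, ENSG00000187608, 1001138 to 1014540, IFI6, ENSG00000126709, 27666064 to 27672212, GBP1, ENSG00000117228, 89051882 to 89065360, and GBP2, ENSG00000162645, 89106132 to 89150456).

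Bulk values are log2(CPM + 1), where CPM is the reads of a gene scaled to a common library total. Library totals were 49948198 to 59246286 reads in the TNFα table, 19073609 to 30282025 in set 2 and 25508651 to 29408687 in set 1. The podocyte gene NPHS1 and the proximal tubule gene CUBN stood at 6.59 or more in every bulk library, so RNA of both genes was present. Neuronal markers were present too. Their 8 genes summed to 950 to 1209 CPM in set 1, above the 8 proximal tubule markers (392 to 514 CPM). In the 24 h vehicle library they summed to 378 CPM, below the proximal tubule markers (673 CPM). Of 8 markers of blood-derived cells, PTPRC, LYZ, CD3E, TYROBP and CD68 were in none of the bulk tables. AIF1, CD14 and CSF1R were in at least 1 table, and those measured summed to 1.65 to 13.3 CPM a library. These tables list only genes that passed the authors' filter, and CD68 was detected in both single-cell libraries. Fewer cells of a type and less RNA per cell cannot be told apart in such libraries.

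In bulk organoids, TNFα raised IRF1, GBP1, GBP2 and MX1, lowered IFIT1, and left STAT2, IFIT3, ISG15 and IFI6 uncalled. So 4 of the 9 genes were called higher and 1 lower, where 8.42% of the 21093 genes tested were called higher and 10.8% lower. The 9 genes were chosen with earlier results of these data known. Their counts beside the shares of all genes, here and below, are descriptions only. The median change of the 9 was 0.22 on the log2 scale, against -0.03 over all genes. A call is an adjusted p under 0.05 in limma with terms for time and treatment, in which 24 h and 48 h stand in for replicates, and Benjamini-Hochberg adjustment runs over all genes of the table. With 1 library per condition, a gene's own libraries say little about its spread. The SE and p-values of this fit therefore rest mostly on the spread that limma took from the other genes.

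**Figure D1:**
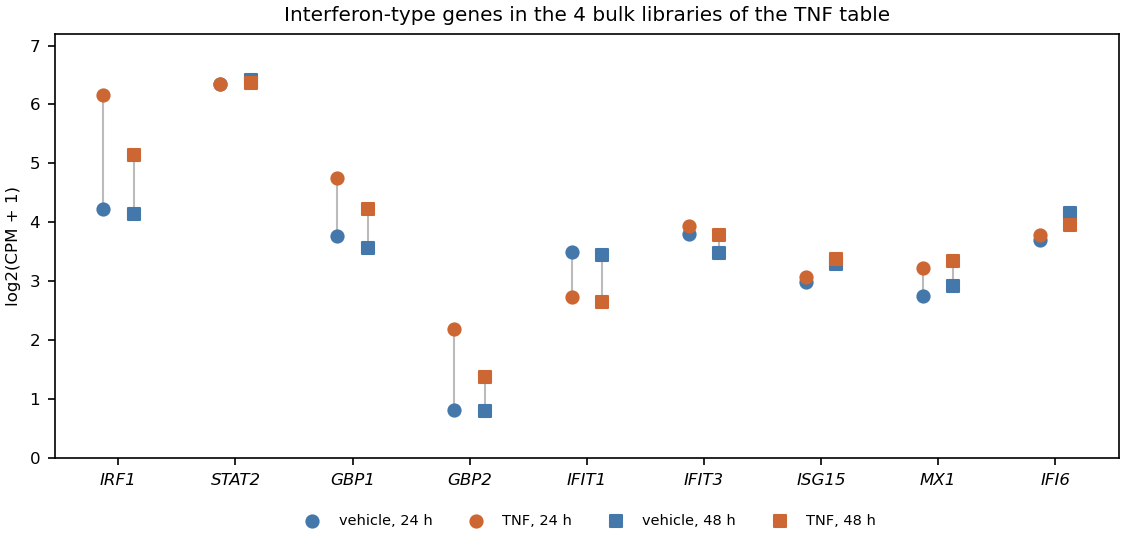
Level of each of the 9 genes (y axis, log2(CPM + 1)) in the 4 libraries of the TNFα table, with circles for 24 h, squares for 48 h, blue for vehicle and orange for TNFα, and a grey line joining the pair of each time. IRF1 went from 4.22 to 6.17 at 24 h and from 4.14 to 5.14 at 48 h, while IFIT1 lay lower with TNFα at both times.

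IRF1, a transcription factor that binds ISRE-like sites, stood at 4.22 (VC) and 6.17 (TNFα) at 24 h, and at 4.14 (VC) and 5.14 (TNFα) at 48 h. These values rest on 959 and 3720 reads at 24 h and on 830 and 2025 reads at 48 h. Both TNFα libraries lay above both VC libraries, and the rise at 24 h (1.94) was larger than that at 48 h (1.0), a difference that 1 library per condition cannot test. The change over both times was 1.47 ± 0.14 (SE, adjusted p = 4.79e-07 by limma). This SE came mostly from other genes, and the IRF1 steps of 1.94 and 1.0 lay further apart than it. IRF1-AS1, which is transcribed from the opposite strand over IRF1, differed by -0.24 at 24 h and by 0.00092 at 48 h. None of the sources used here says whether counting took the strand of reads into account.

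GBP1 and GBP2 are large GTPases that coat intracellular pathogens and are strongly induced by type II interferon. GBP1 stood at 3.76 (VC) and 4.75 (TNFα) at 24 h, and at 3.57 (VC) and 4.22 (TNFα) at 48 h. GBP2, the lowest member in level, stood at 0.82 (VC) and 2.20 (TNFα) at 24 h, and at 0.81 (VC) and 1.39 (TNFα) at 48 h. For both genes the VC and TNFα libraries did not overlap, and the step was larger at 24 h than at 48 h. GBP1 rose by 0.82 ± 0.10 (SE, adjusted p = 1.07e-05 by limma) and GBP2 by 0.98 ± 0.15 (adjusted p = 0.000129). GBP2 rests on 37 to 188 reads a library, its change is understated on a scale with 1 CPM added, and it shares part of its annotated span with GBP7 on the same strand.

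MX1, a dynamin-like antiviral GTPase, stood at 2.75 (VC) and 3.23 (TNFα) at 24 h, and at 2.92 (VC) and 3.34 (TNFα) at 48 h. Both TNFα libraries lay above both VC libraries by a smaller margin than for IRF1. MX1 rose by 0.45 ± 0.11 (SE, adjusted p = 0.00745 by limma), a call that was lost in DESeq2 (adjusted p = 0.0578).

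IFIT1, which binds RNA lacking the cap methylation of the host, went the other way. It stood at 3.50 (VC) and 2.73 (TNFα) at 24 h, and at 3.45 (VC) and 2.64 (TNFα) at 48 h. Both TNFα libraries lay below both VC libraries, by 0.77 at 24 h and 0.80 at 48 h, and the change was -0.79 ± 0.11 (SE, adjusted p = 4.76e-05 by limma). IFIT3, the protein partner of IFIT1 and its neighbour on chromosome 10, stood at 3.81 (VC) and 3.93 (TNFα) at 24 h, and at 3.48 (VC) and 3.79 (TNFα) at 48 h, with 1 TNFα library below 1 VC library. Its change of 0.22 ± 0.10 (SE) had an adjusted p of 0.162 by limma. LIPA, on the opposite strand over both genes, differed by -0.07 at 24 h and -0.08 at 48 h.

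The remaining members gave no call. STAT2, which acts with IRF9 in the type I response, stood at 6.34 (VC) and 6.34 (TNFα) at 24 h, and at 6.41 (VC) and 6.37 (TNFα) at 48 h, a change of -0.02 ± 0.06 (SE, adjusted p = 0.861 by limma). ISG15, a ubiquitin-like protein that is joined to other proteins, stood at 2.98 (VC) and 3.08 (TNFα) at 24 h, and at 3.3 (VC) and 3.38 (TNFα) at 48 h, a change of 0.09 ± 0.11 (adjusted p = 0.663). IFI6, a small membrane protein, stood at 3.71 (VC) and 3.79 (TNFα) at 24 h, and at 4.16 (VC) and 3.96 (TNFα) at 48 h, a change of -0.06 ± 0.10 (adjusted p = 0.751). All 3 genes moved more between the 24 h and 48 h vehicle libraries (STAT2 by 0.074, ISG15 by 0.32 and IFI6 by 0.45) than between vehicle and TNFα at either time. A p that misses the threshold does not show that the levels were alike.

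Levels of different genes can be set side by side per kilobase of the annotated canonical transcript. On that scale (CPM per kilobase), the VC library of 24 h held IRF1 at 4.97, STAT2 at 18.2, IFI6 at 14.9, ISG15 at 10.8 and GBP2 at 0.185, and the TNFα library of 24 h held IRF1 at 19.9, so that IRF1 passed STAT2 (18.2) in that library. At 48 h IRF1 was at 9.62 with TNFα, below STAT2 at 18.5.

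These calls rest on few libraries. Without the time term, IRF1 (adjusted p = 0.0268 by limma), GBP1 (0.0473) and IFIT1 (0.0178) were called and GBP2 (0.0666) and MX1 (0.145) were not. Without the time term and with each library left out in turn, 0 of the 9 genes were called higher without VC 24 h and without VC 48 h, 1 (IRF1) without TNFα 24 h and 3 (IRF1, GBP1 and GBP2) without TNFα 48 h, and IFIT1 was called in none of the 4. Cell type markers moved with treatment too, as a summed level over each list. All 9 podocyte markers lay lower in both TNFα libraries, with a sum of 7142 and 6637 CPM in VC and of 4362 and 3234 CPM with TNFα. All 8 proximal tubule markers did so as well, with sums of 673 and 662 CPM in VC and of 360 and 421 CPM with TNFα, and the sums of the 8 stromal markers were 6565 and 8078 CPM in VC and 8206 and 8565 CPM with TNFα. The part of these shifts in the results above was not tested.

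The rest of the pathway was read through lists of genes by role, and no interferon gene appeared among the genes of the TNFα table. Of 22 interferon ligand genes, 0 were in that table and only IFNL4 was in set 2, at 1 to 3 reads a library. A gene outside a filtered table may still have been expressed. The receptors and kinases were all present. IFNGR2 rose by 0.55 (from 5.52 and 5.70 in VC to 6.18 and 6.15), IFNAR2 by 0.45 (from 2.52 and 2.76 to 3.03 and 3.15), TYK2 by 0.39 and JAK1 by 0.37, with adjusted p from 2.08e-05 to 0.0089 by limma. IFNLR1 (0.19), JAK2 (0.13), IFNGR1 (0.09), IFNAR1 (0.05) and IL10RB (-0.06) gave no call. So 4 of 9 receptors and kinases were called higher and 0 lower, with a median of 0.19.

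Among 8 other transcription factors of these pathways, 5 were called higher and 0 lower (median 0.42). The largest rises were IRF8 (1.82 ± 0.12 SE, adjusted p = 7.13e-09 by limma), a factor best known from immune cells, IRF5 (0.64) and STAT3 (0.60). Of 8 RNA and DNA sensor genes and their adaptors and kinases, 4 were called higher and 0 lower (median 0.33), led by the kinase IKBKE (1.21), the RNA sensor IFIH1 (1.03) and the DNA-sensing adaptor STING1 (0.63). Of 6 negative regulators 2 were called higher and 0 lower (median 0.12), namely SOCS1 (0.59) and SOCS3 (0.26), which restrain JAK signalling.

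The type I target list and the type II target list differed in size of change. Of 32 other type I targets, 27 were in the table, of which 12 were called higher and 1 lower (median 0.24). The largest rises were OAS3 (1.44 ± 0.11 SE, adjusted p = 2.54e-08 by limma), TRIM22 (1.06) and PARP14 (0.97), and OAS1, like OAS3 an enzyme that responds to double-stranded RNA, fell by 0.37 (adjusted p = 0.0414). OAS3 stood at 2.54 and 2.55 in VC and at 3.97 and 3.99 with TNFα. Of 11 other type II targets, 7 were in the table, of which 5 were called higher and 0 lower (median 1.56). They were led by the adhesion molecule ICAM1 (4.25), the chemokine CXCL10 (3.20) and GBP4 (1.96), and ICAM1 and CXCL10 are also known as NF-κB targets. CXCL10 stood at 0.19 and 0.30 in VC and at 3.66 and 3.21 with TNFα. Of 12 NF-κB targets, 11 were in the table and 10 were called higher and 0 lower, with a median of 2.47, which is above that of each interferon list. VCAM1 (4.14), CCL2 (4.07) and BIRC3 (3.54) led them. These lists were read as counts beside the 8.42% and 10.8% of all genes, with no test of a list as such. They were chosen with earlier results of these data known, so the order of their medians is a description only.

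**Figure D2:**
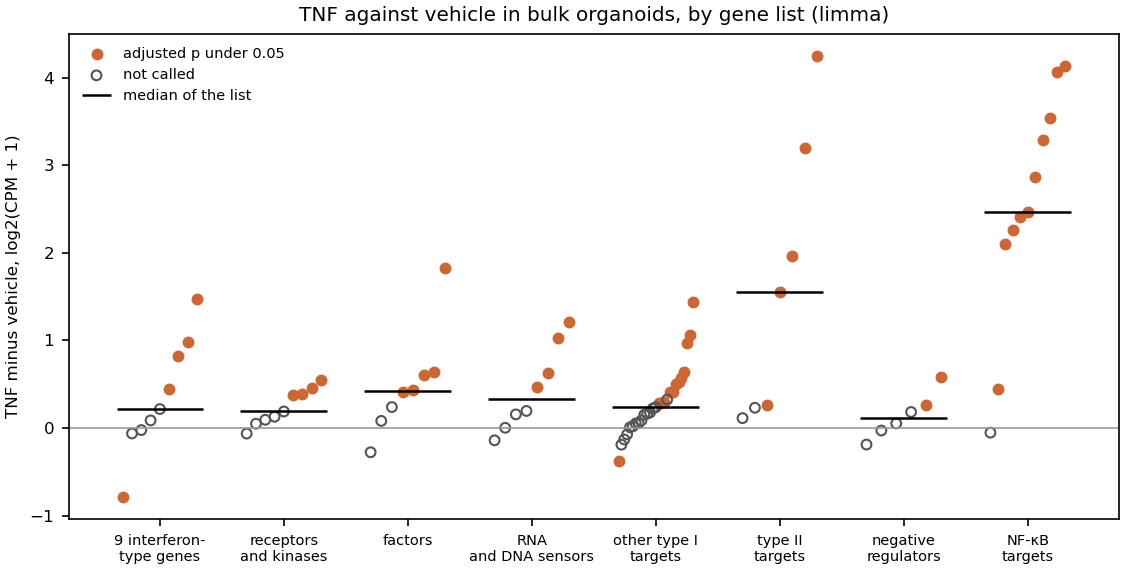
Change with TNFα (y axis, TNFα minus vehicle in log2(CPM + 1) from limma) of each measured gene, in columns by list, with filled points for genes called at an adjusted p under 0.05, open points for the others and a bar for the median of the list. The median of the 9 interferon-type genes was 0.22 and that of the NF-κB targets 2.47.

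Genes with values most like IRF1 and ISG15 over the 13 bulk libraries were named by the root mean square distance of values centred within each table, over 18680 genes. NFKBID, a nuclear inhibitor of NF-κB, lay closest to IRF1 at a distance of 0.121 (log2), followed by the kinase gene PIM3 (0.183) and RFTN1 (0.227). All 3 lay higher with TNFα, NFKBID by 1.52 at 24 h and 0.80 at 48 h. The genes closest to ISG15 were RPL3P7 (0.0645), a ribosomal protein pseudogene, BCL7A (0.0688) and CKS2 (0.0764), and ISG15 itself varied little over these libraries. Likeness here is a description, since the libraries share tables, depth and treatment.

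Without TNFα, GBP1, GBP2 and IFI6 rose with days of culture and the other 6 genes gave no call. In set 2, 2 of the 9 genes were called higher and 0 lower from day 21 to day 25, against 3.39% of 27650 genes called higher and 1.99% lower. From day 25 to day 29, 1 was called higher and 0 lower, against 1.25% and 0.825%. From day 21 to day 29, 3 were called higher and 0 lower, against 10.0% and 8.33%, and the median of the 9 genes was 0.32 against -0.02 over all genes.

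**Figure D3:**
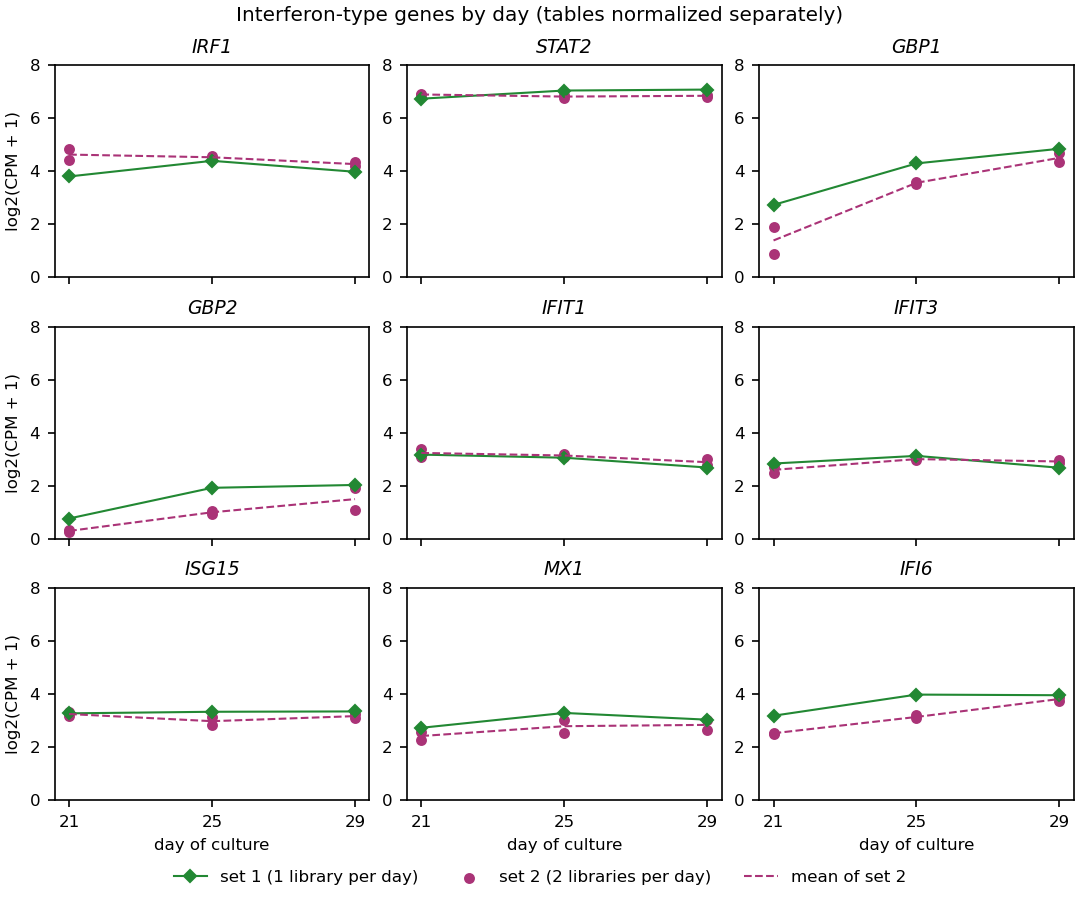
Level of each gene (y axis, log2(CPM + 1)) by day of culture (x axis), with green diamonds for the single libraries of set 1, purple points for the 2 libraries a day of set 2 and a dashed line for their mean. GBP1 went from 1.90 and 0.89 on day 21 to 4.34 and 4.68 on day 29 in set 2, and from 2.74 to 4.85 in set 1. The tables were normalized separately, so levels are not compared between the colours.

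GBP1 in set 2 stood at 1.90 and 0.89 on day 21, at 3.53 and 3.61 on day 25 and at 4.34 and 4.68 on day 29. The days did not overlap, and the pair of day 21 libraries, on 59 and 23 reads, lay furthest apart. GBP1 rose by 2.17 ± 0.30 (SE, adjusted p = 0.00765 by limma) to day 25 and by 3.11 (adjusted p = 0.000431) to day 29, with 0.94 (adjusted p = 0.16) between day 25 and day 29. The rise to day 25 had an adjusted p of 0.0633 without the first day 25 library and 0.0779 without the second, and each leaves that day with 1 library whose spread is taken from the other days. In set 1 GBP1 stood at 2.74, 4.30 and 4.85 on days 21, 25 and 29.

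IFI6 in set 2 stood at 2.49 and 2.54 on day 21, at 3.19 and 3.07 on day 25 and at 3.90 and 3.72 on day 29. Every library of a later day lay above every library of an earlier day. IFI6 rose by 0.61 (adjusted p = 0.04 by limma), then by 0.68 (adjusted p = 0.0482), and by 1.29 ± 0.13 (SE, adjusted p = 0.000582) in all. Both single steps lost their call when any library of either day was left out, with adjusted p from 0.082 to 0.238, and the second step also without either day 21 library. In set 1 IFI6 stood at 3.18, 3.97 and 3.95.

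GBP2 in set 2 stood at 0.33 and 0.26 on day 21, at 1.05 and 0.94 on day 25 and at 1.07 and 1.91 on day 29. These values rest on few reads, 5 and 5 on day 21, 20 and 20 on day 25, and 33 and 76 on day 29. The day 29 libraries lay far apart, and the lower of them was next to day 25. GBP2 rose by 1.2 ± 0.24 (SE, adjusted p = 0.0119 by limma) from day 21 to day 29, with adjusted p of 0.0722 and 0.0855 without the first and the second day 21 library. In set 1 GBP2 stood at 0.76, 1.92 and 2.03.

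IRF1 did not rise with days. It stood in set 2 at 4.85 and 4.41 on day 21, 4.56 and 4.50 on day 25, and 4.34 and 4.21 on day 29, a change of -0.36 ± 0.14 (SE, adjusted p = 0.13 by limma) from day 21 to day 29. With each library centred on the median of all genes this became a call (-0.46, adjusted p = 0.0225), and likewise without the second day 21 library (-0.58, adjusted p = 0.0359). In set 1 IRF1 was highest on day 25, at 3.81, 4.40 and 3.99. STAT2 stayed between 6.75 and 6.90 in all 6 set 2 libraries. IFIT1 ranged from 2.78 to 3.39, IFIT3 from 2.47 to 3.05, ISG15 from 2.83 to 3.32 and MX1 from 2.27 to 3.03 in set 2, with no call between days.

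Other genes of the pathway were counted over days as well. From day 21 to day 29 in set 2, 10.0% of all genes were called higher and 8.33% lower. Of the lists, 12 of 29 measured other type I targets were called higher and 2 lower, and 3 of 9 type II targets higher. Among factors 2 of 8 were called higher, among sensors 3 of 8 higher and 1 lower, and among NF-κB targets 9 of 12 higher. Receptors and kinases gave 1 of 9 higher, near the share of all genes, and negative regulators 1 of 6 higher. Over the same days the summed level of the 8 stromal markers went from 4817 and 4219 CPM to 14151 and 17672 CPM, with all 8 higher in every day 29 library, and that of the 9 podocyte markers from 11397 and 11999 CPM to 7854 and 3702 CPM. All 8 neuronal, all 8 measured muscle and all 6 mural markers were also higher in every day 29 library of set 2. Their sums went from 397 and 424 CPM to 706 and 1068 CPM for neuronal, from 59.6 and 84.7 CPM to 188 and 169 CPM for muscle, and from 252 and 232 CPM to 494 and 571 CPM for mural markers. In set 1 all 8 neuronal markers were lower on day 29. The part of these shifts in the results by day was not tested.

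The single-cell libraries ask in which cells the 9 genes were found. Cells with over 500 genes numbered 11906 in VC, with a median of 6358.5 UMIs, and 23160 with TNFα, with a median of 2599 UMIs, and 82 barcodes occurred in both libraries. Cells were clustered after alignment of both libraries, without the 9 genes and the listed genes, and clusters were named from marker genes as stromal-like (2630 VC and 4474 TNFα cells), podocyte-like (1395 and 4394), proximal tubule-like (1448 and 4059), proliferating-like (961 and 2230), neuronal-like (1714 and 2286), neural progenitor or glial-like (863 and 1025) and muscle-like (152 and 1695). Without alignment, 15399 of the 23160 TNFα cells and 877 VC cells fell into 1 cluster in which no listed marker was raised, so every ratio by class rests on the alignment. The other 4 clusters of the aligned cells stayed unnamed, with 10.5%, 6.48%, 5.83% and 0.252% of VC cells. A level is the CPM of a class, from the summed UMIs of all its cells, with an exact Poisson 95% interval, and a ratio of TNFα to VC carries an exact interval. Both cover counting error only, and 1 library per condition allows no test.

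Over all cells together, IRF1, GBP2 and GBP1 stood higher with TNFα and IFIT1 lower by 1.5-fold or more, the size taken here as a difference for genes with at least 20 UMIs over both libraries. That makes 3 of the 9 genes higher and 1 lower, where 6.80% of 21242 genes were higher and 10.6% lower by the same rule. IRF1 stood at 11.2 CPM (10.6 to 11.9) in VC and at 45.8 CPM (44.4 to 47.2) with TNFα, a ratio of 4.08 (3.82 to 4.36). GBP2 had 78 UMIs in VC and 226 with TNFα, a ratio of 3.20 (2.46 to 4.19), and the ratio of GBP1 was 2.11 (1.97 to 2.27). IFIT1 stood at 9.20 CPM (8.62 to 9.81) in VC and at 5.99 CPM (5.50 to 6.51) with TNFα, a ratio of 0.651 (0.585 to 0.724). So the genes past 1.5-fold were among those called in the bulk libraries, with the same direction in each. The ratios of STAT2 (1.40, 1.32 to 1.48), IFIT3 (1.5 after rounding, 1.37 to 1.63, just under the limit), ISG15 (1.13, 1.08 to 1.19), MX1 (1.14, 0.943 to 1.38) and IFI6 (0.902, 0.846 to 0.962) did not reach it.

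The TNFα library was the shallower per cell, and markers of one class stood at a larger share of their own level in the others there. The summed level of the podocyte markers in the other named classes was 1.07% to 5.52% of that in podocyte-like cells in VC, and 8.63% to 19.7% with TNFα. For stromal markers the range was 5.56% to 32.4% in VC and 25.1% to 53.3% with TNFα, and for proximal tubule markers 1.66% to 5.22% and 6.18% to 17.2%. A level in a class is marked below where it was no higher a share of the level in the class highest for that gene than the markers of that highest class reached in it with TNFα. Summed markers also stood lower with TNFα in their own class, in every named class. They went from 8466 to 4585 CPM in podocyte-like, from 7328 to 4793 CPM in stromal-like and from 4572 to 2341 CPM in proliferating-like cells. The part of this spread and of these falls in the ratios was not tested.

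**Figure D4:**
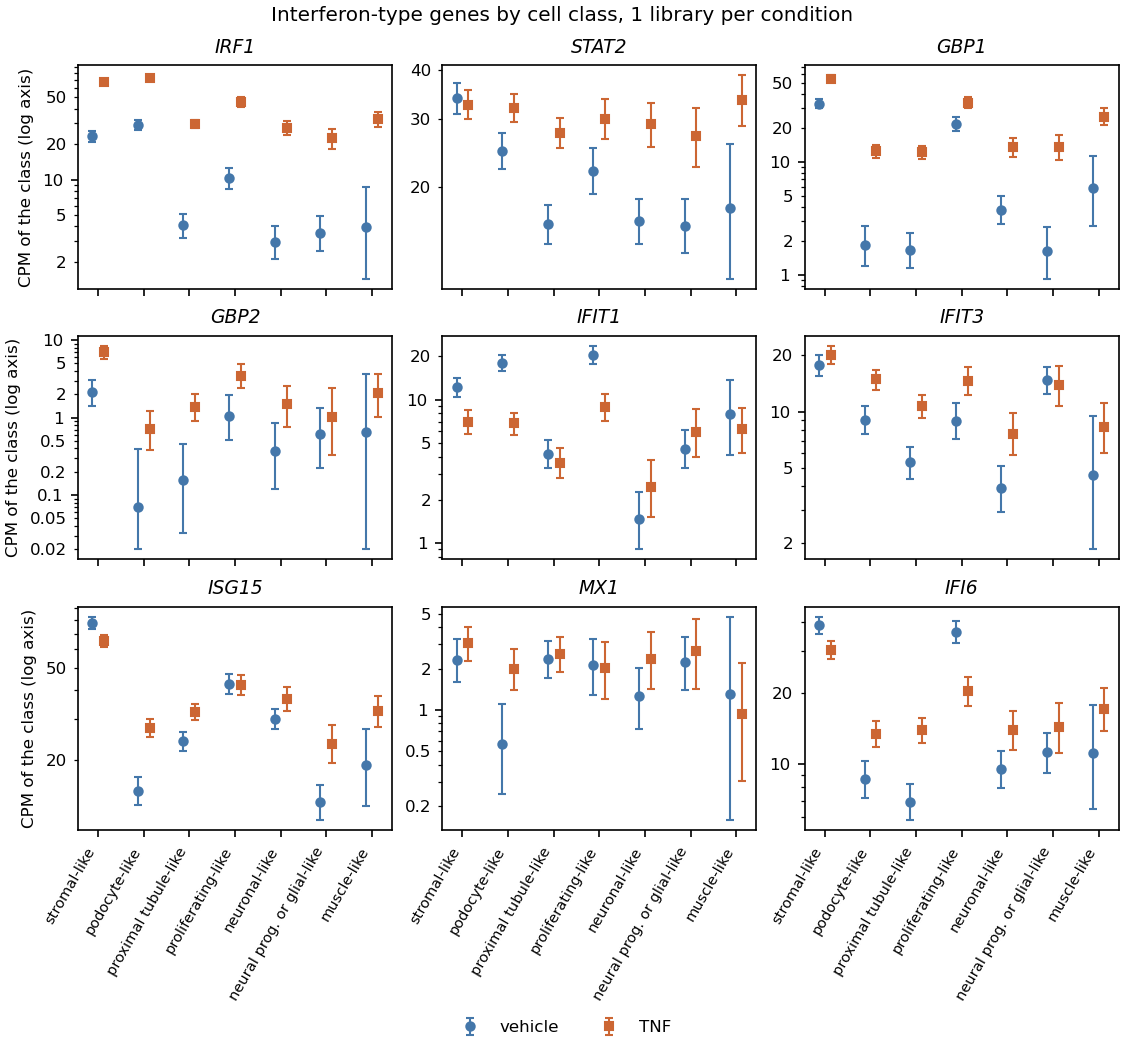
Level of each gene (y axis, CPM from summed UMIs, log scale) in the 7 named cell classes (x axis), in blue for vehicle and orange for TNFα, with exact Poisson 95% intervals as bars, cut at the foot of the panel for 2 of GBP2. IRF1 lay higher with TNFα in all 7 classes, from 28.8 to 72.4 CPM in podocyte-like cells and from 2.96 to 27.4 CPM in neuronal-like cells.

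IRF1 lay higher with TNFα in each of the 7 named classes. In VC its level fell in the order podocyte-like (28.8 CPM, 26.1 to 31.8), stromal-like (23.4 CPM, 20.9 to 26.0) and proliferating-like cells (10.3 CPM, 8.31 to 12.5), and the other 4 named classes lay between 2.96 and 4.08 CPM with intervals that overlapped. With TNFα podocyte-like cells (72.4 CPM, 68.5 to 76.4) and stromal-like cells (67.5 CPM, 63.6 to 71.7) overlapped and lay above proliferating-like cells (45.8 CPM, 41.6 to 50.4). Among the named classes, those with the highest IRF1 in VC had the smallest ratios. They were 2.51 (2.25 to 2.81) in podocyte-like, 2.89 (2.55 to 3.28) in stromal-like and 4.47 (3.58 to 5.63) in proliferating-like cells. In proximal tubule-like cells the ratio was 7.26 (5.72 to 9.32) and in neuronal-like cells 9.28 (6.60 to 13.3), and muscle-like cells rest on 6 UMIs in VC. Unnamed clusters 3, 9 and 10, at 7.33, 7.75 and 6.31 CPM in VC, had ratios of 3.38, 4.43 and 4.43. Those lay below the ratio of proliferating-like cells. The VC level is also the divisor of each ratio, so the order is partly built in. With TNFα, stromal-like cells stood at 93.3% of the podocyte-like IRF1 level, but IRF1 was compared with the spread of podocyte markers alone. In neural progenitor or glial-like cells IRF1 stood at 30.8% of that level, podocyte markers at 8.63% of their own and stromal markers at 30.1%. In muscle-like cells these shares were 44.7%, 19.7% and 39.4%. Spread out of both classes together was not tested in any class, neuronal-like cells included.

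Among the named classes in VC, GBP1 was highest in stromal-like and proliferating-like cells, at 32.7 CPM (29.8 to 35.9) and 21.7 CPM (18.8 to 24.8), against 1.67 CPM in proximal tubule-like and 1.83 CPM in podocyte-like cells. With TNFα it stood at 54.9 CPM (51.3 to 58.7) in stromal-like cells, a ratio of 1.68 (1.5 to 1.88), and at 33.6 CPM (30 to 37.5) in proliferating-like cells, a ratio of 1.55 (1.30 to 1.86). The ratios of 6.80 in podocyte-like, 7.31 in proximal tubule-like, 8.36 in neural progenitor or glial-like and 3.57 in neuronal-like cells belong to levels at or below the reach of markers between classes. In unnamed cluster 3 GBP1 stood higher than in any named class in VC, at 44.6 CPM (40 to 49.7), and at 35.1 CPM (30.6 to 40.1) with TNFα, a ratio of 0.786 (0.660 to 0.936). GBP2 was highest in stromal-like cells, with 30 UMIs in VC and 112 with TNFα, a ratio of 3.29 (2.18 to 5.11).

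IFIT1 was lower with TNFα in the 3 named classes with its highest VC levels. It stood in VC at 20.5 CPM (17.7 to 23.6) in proliferating-like, 18 CPM (15.8 to 20.3) in podocyte-like and 12.3 CPM (10.5 to 14.2) in stromal-like cells, and with TNFα at 8.85 CPM (7.06 to 11), 6.81 CPM (5.66 to 8.12) and 7.02 CPM (5.78 to 8.44). None of these intervals overlapped within a class, and the ratios were 0.432 (0.330 to 0.560), 0.379 (0.303 to 0.472) and 0.573 (0.448 to 0.730). Summed markers of each of these classes were lower in their own class with TNFα as well. The VC level that picked these classes is also the divisor of the ratios. In neuronal-like cells, where IFIT1 had 20 UMIs in each library, the ratio was 1.67 with an interval of 0.853 to 3.27. In unnamed cluster 9 IFIT1 went the other way, from 8.45 CPM (6.23 to 11.2) to 16.3 CPM (11.5 to 22.4), a ratio of 1.93 (1.22 to 3.02), and in unnamed cluster 10 the ratio was 0.437 (0.199 to 0.862). IFIT3 did not follow IFIT1. Its ratio was 1.64 (1.32 to 2.04) in podocyte-like, 1.63 (1.24 to 2.16) in proliferating-like and 1.13 (0.959 to 1.34) in stromal-like cells.

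The ratios of ISG15 and IFI6 lay above 1 in some classes and below 1 in others. ISG15 stood at 78.1 CPM (73.6 to 82.8) in stromal-like cells in VC and at 65.1 CPM (61.2 to 69.2) with TNFα, a ratio of 0.833 (0.765 to 0.908), and at 14.8 CPM and 27.6 CPM in podocyte-like cells, a ratio of 1.87 (1.59 to 2.20). IFI6 stood at 36.2 CPM (32.4 to 40.2) and 20.3 CPM (17.6 to 23.4) in proliferating-like cells, a ratio of 0.563 (0.469 to 0.673), and at 6.95 CPM and 13.9 CPM in proximal tubule-like cells, a ratio of 2.00 (1.62 to 2.49). For ISG15 in proliferating-like cells the ratio was 0.987 with an interval that held 1 (0.858 to 1.14). Unnamed cluster 9 held more of both genes in VC than proliferating-like cells did. There ISG15 stood at 53.4 CPM in VC with a ratio of 1.24 (1.01 to 1.51), and IFI6 at 69.4 CPM, its highest level in VC, with a ratio of 0.717 (0.576 to 0.885). STAT2 had a ratio of 0.963 (0.849 to 1.09) in stromal-like cells, its highest named class in VC, and of 1.72 (1.49 to 1.98) in proximal tubule-like cells. MX1 had at most 49 UMIs in any named class and library, and its ratio in podocyte-like cells was 3.53 (1.62 to 8.80) on 8 and 36 UMIs. In every other named class the interval of the MX1 ratio held 1. Unnamed cluster 9 had the highest MX1 level in VC (8.98 CPM), with a ratio of 1.18 (0.692 to 1.95).

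**Figure D5:**
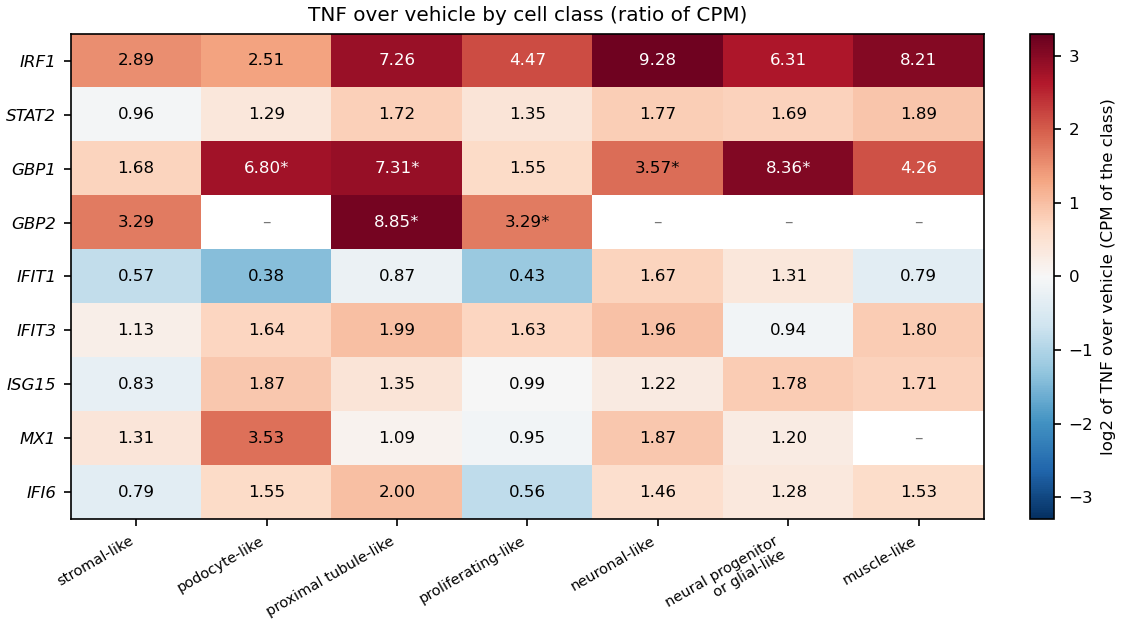
Ratio of TNFα to vehicle for each gene (rows) in each named cell class (columns), with colour by the log2 of the ratio, a star where the level with TNFα was at or below the reach of markers between classes, and a dash where both libraries together held under 20 UMIs. IRF1 was above 2.5 in all 7 classes and IFIT1 was lowest in podocyte-like cells at 0.379.

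Counted by class, the genes 1.5-fold or more higher were 3 of 9 in stromal-like cells (10.2% of all genes in that class), 6 of 8 in podocyte-like (16.8%), 6 of 9 in proximal tubule-like (12.7%), 4 of 9 in proliferating-like (9.40%), 6 of 8 in neuronal-like (14.8%), 4 of 8 in neural progenitor or glial-like (11.6%) and 6 of 7 in muscle-like cells (31.8%). Those lower were 1 in stromal-like (9.99%), 1 in podocyte-like (9.69%) and 2 in proliferating-like cells (7.10%), and 0 in proximal tubule-like (8.50%), neuronal-like (11.5%), neural progenitor or glial-like (4.88%) and muscle-like cells (9.73%). Of the 35 pairs of gene and class that were higher, 25 lay above the reach of markers and 6 at or below it. The other 4 were in the gene's highest class. Reach was taken from the highest class alone, so a place above it does not set a level apart from spread out of several classes. STAT2 with TNFα was set against muscle-like cells (33.5 CPM), though stromal-like (32.6 CPM) and podocyte-like cells (31.9 CPM) stood close to them. IRF1 with TNFα was set against podocyte-like cells (72.4 CPM), though stromal-like cells (67.5 CPM) stood close to them. The muscle-like class held 152 VC cells with a median of 10552.5 UMIs and 1695 TNFα cells with a median of 2286 UMIs, so its ratios compare unlike cells.

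The other genes of the pathway were counted over all cells in the same way, where 6.80% of all genes were higher and 10.6% lower. The median ratio over all genes was 0.952. Of 21 interferon ligand genes in the matrices, 3 had any UMI and none reached 20, with IFNL3 at 2 UMIs in each library. Of the 9 receptors and kinases 0 were 1.5-fold higher or lower (median ratio 1.28), and IFNGR2, called higher in bulk, had a ratio of 1.48 (1.42 to 1.53). Of 30 other type I targets past the minimum 12 were higher and 0 lower (median 1.33), of 9 type II targets 6 were higher and 0 lower (median 3.43), and of 12 NF-κB targets 10 were higher and 0 lower (median 6.85). CXCL10 had 139 UMIs in VC and 7254 with TNFα, a ratio of 57.6 (48.7 to 68.6), and ICAM1 had a ratio of 30.1 (25.4 to 35.8). Of 8 markers of blood-derived cells, PTPRC had 1 UMI in VC and 4 with TNFα, CD3E 1 and 0, CSF1R 0 and 2, CD14 10 and 9, and LYZ 14 and 24. TYROBP had 23 and 49 UMIs, a ratio of 2.35 (1.41 to 4.04), CD68 342 and 219, a ratio of 0.707 (0.594 to 0.840), and AIF1 2924 and 4084, a ratio of 1.54 (1.47 to 1.62). Their part in the ratios of the 9 genes was not tested.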

How the data were processed

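RNA-seq of isolated spheroids (13 bulk libraries) and droplet single-cell RNA-seq of whole cultures (2 libraries) were used, of 16 samples in the labels. For the bulk tables, the authors aligned reads to GRCh38 with STAR 2.7.8a, counted them per gene with HTSeq (0.11 per the labels) and deposited log2 values, log2(CPM + 1) with voom, filtered by a rule that none of the sources used here states. Whole reads were recovered from these values for 100% of entries, each within 2.25e-08 of a whole read. The single-cell matrices hold UMI counts as deposited by the authors, made with Cell Ranger (6.0.1 per the file headers, 2.1.1 per the labels), and no source used here ties them to a genome build.

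Changes were tested with limma 3.58.1 (R 4.3.3, eBayes with a trend), with time and treatment in the TNFα table and a mean per day in set 2, and called at a Benjamini-Hochberg adjusted p under 0.05 over all genes of the table. Alternatives were edgeR 4.0.16, DESeq2 1.42.0, a mean CPM of at least 1, log2(CPM + 0.1), no trend, no time term, median centring, a replicate block and leaving out each library. Cells with over 500 genes were clustered with scanpy 1.11.5 (2000 variable genes a library, 30 components, 20 neighbours, resolution 0.25). Conditions for a name included at least 3 raised markers of a class, and under 0.6 of that number for any second class. The stromal-like cluster raised 7 stromal and also 4 mural markers. The proximal tubule-like cluster raised 6 of its own, 3 distal tubule and 2 nephron progenitor markers, so these classes may be mixed. The naming limits were chosen after seeing the data. Scrublet's own threshold marked 0 cells, so doublets were kept, and an alternative left out the 1134 VC and 4291 TNFα cells with the highest scores. Scripts were tested on simulated data. The members and gene lists were chosen with earlier results of these data known. Named were all 9 members, up to 3 rises and 3 falls called per list, any ligand or receptor gene, and the 3 genes most like IRF1 and ISG15. Other genes were named where they overlap a member, mark a cell type or were chosen after their values were seen.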

Additional observations from a re-analysis of the deposited data

Results flagged for a closer look

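For IFI6 the 2 bulk times differed in sign, with TNFα minus vehicle at 0.082 (log2) at 24 h and -0.21 at 48 h. The vehicle libraries alone stood further apart, at 3.71 at 24 h and 4.16 at 48 h. The difference between times was not tested, since each condition had 1 library.

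In the single cells, ISG15 had a ratio of TNFα to vehicle of 1.87 in podocyte-like and 0.833 in stromal-like cells, and IFI6 of 2.00 in proximal tubule-like and 0.563 in proliferating-like cells. With 1 library per condition neither difference was tested. Stromal markers stood at a larger share of their own level with TNFα in every other named class. The share went from 16.3% to 34.6% in podocyte-like, from 5.56% to 25.1% in proximal tubule-like and from 32.4% to 53.3% in proliferating-like cells. The part of this spread in these ratios was not tested.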

How the results depend on the processing

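In the TNFα table, 4 genes were called higher and 1 lower. Without the time term 2 were called higher, and with each library left out as well 0 to 3 higher and 0 lower, the last resting on IFIT1 (adjusted p 0.0667 to 0.119 by limma). By day, members called higher from day 21 to day 25 (2) ranged from 0 to 3 with a library left out. From day 25 to day 29 (1) they were 2 in edgeR and 0 to 1 with a library left out. From day 21 to day 29, 1 gene (IRF1) was called lower under median centring and 0 to 1 with a library left out, against 0. Median centring moved the median of all genes in that comparison to -0.12, and the genes called to 2408 higher and 4667 lower, against 2778 and 2303. Over all genes of the TNFα table, DESeq2 called 978 lower, and the fit without the time term 637 higher and 673 lower, against 1776 and 2285. Leaving out a library as well gave 342 to 402 higher and 296 to 358 lower. Leaving out a library of set 2 gave 191 to 1336 genes higher and 50 to 896 lower from day 21 to day 25 (against 937 and 549), 0 to 1192 and 0 to 822 from day 25 to day 29 (against 346 and 228, the counts of 0 being those without either day 25 library, by limma, where the unadjusted p was under 0.05 for 3383 and 3715 genes), and 1398 to 2964 and 960 to 2453 from day 21 to day 29. From day 25 to day 29, edgeR gave 834 higher and 502 lower, DESeq2 818 and 470, a mean CPM of at least 1 659 and 469, no trend 129 and 80, and median centring 666 and 567. From day 21 to day 25, genes lower were 348 with no trend and 1281 with median centring.

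The study's methods name no pairing of the set 2 libraries, so the main fit took none. Deviations of libraries with the same number correlated at 0.102, 0.0611 and 0.202, which does not settle whether the numbers pair them. With the replicate block, 2, 1 and 3 members were called higher and 0 lower in the 3 day comparisons, and the adjusted p of IRF1 from day 21 to day 29 was 0.0527. The block gave 832 genes lower from day 21 to day 25, and 676 higher and 442 lower from day 25 to day 29. In the TNFα table the time term already pairs the VC and TNFα libraries of each time.

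In single cells, 19 of 48 pairs of gene and class were higher without alignment, against 35 of 58, with 15399 TNFα and 877 VC cells then in 1 unnamed cluster. No cluster was named proliferating-like there, so the pairs are not the same ones. The share over all genes was not counted without alignment. In muscle-like cells GBP1 turned to 0.774 at resolution 0.5 and 0.762 without high doublet scores, and IFI6 to 0.808 and 0.846. The class did not hold the same cells there, since both settings named a further cluster muscle-like. It had 913 VC and 964 TNFα cells at resolution 0.5, and 893 and 921 without high doublet scores. Its leading genes included SPOCK3, NEB and MYF6, as did those of unnamed cluster 3, where the ratios were 0.786 for GBP1 and 0.772 for IFI6. IFIT1 in neuronal-like cells turned to 0.822 without alignment. The causes were not tested. GBP2 and MX1 are limited by depth, with 78 and 222 UMIs in the VC library.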
